A study of Homo sapiens with 6 samples.

Results

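Box C/D small nucleolar RNA (snoRNA) genes were examined in RNA sequencing data from HEK293 cells in which ZNF507 or ZNF146 had been disrupted. The genes were chosen by their symbol (SNORD followed by a number, host genes ending in HG left out) and by measured values, namely 10 or more counts summed over all libraries. By this rule 83 of 389 annotated SNORD genes were kept, 29 others had 1 to 9 counts and 277 had none. The whole table held 57773 genes. Just inside the rule lay SNORD121A and SNORD43, each with 10 counts in all, and just outside it lay a SNORD74 copy and a SNORD112 copy, each with 8. The levels described here chose the genes and are given without a test, while the rule itself used no comparison between conditions. The rule was, however, set with earlier results of these data known.

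HEK293 is an established human embryonic kidney cell line. All 6 libraries came from cells transfected with the Cas9 plasmid PX459, selected with puromycin for 36 h and grown out for 2 weeks. The plasmid carried no guide in the empty vector control (EV, n = 2), while 4 guides against ZNF146 were used for sgZNF146 (n = 2) and 4 guides against ZNF507 for sgZNF507 (n = 2). The disrupted cells were mixed populations and not clones, so each value averages cells with different edits. ZNF507 RNA stood at 72.0 and 75.5 counts in 1000000 counts of the library (CPM) in EV, 71.3 and 73.3 in sgZNF146, and 47.2 and 48.7 in sgZNF507. Against EV its log2 fold change was -0.62 (SE 0.07), with an adjusted p of 0.00195 in edgeR's quasi-likelihood test. ZNF146 RNA stood at 115 and 105 CPM in EV, 99.2 and 103 in sgZNF146 and 88.4 and 101 in sgZNF507, and its log2 fold change in sgZNF146 against EV was -0.13 (SE 0.08, unadjusted p = 0.126), so the RNA level gave no check of the ZNF146 edit. Library totals lay between 22724439 and 28524025 counts. NEFM, a neurofilament gene that these cells are known to express, had 66.3 to 77.5 CPM, whereas the leukocyte gene PTPRC and the liver gene ALB stayed at or below 0.236 CPM in every library.

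Box C/D snoRNAs are short nucleolar RNAs named for 2 conserved sequence elements, box C near the 5′ end and box D near the 3′ end. They assemble with the methyltransferase fibrillarin (FBL), NOP56, NOP58 and SNU13, and most of them guide the methylation of riboses in ribosomal RNA. A few act instead in the cleavage and folding of the ribosomal RNA precursor, among them U3 (the SNORD3 genes), U8 (SNORD118), U14 (SNORD14) and U22 (SNORD22), while U13 (SNORD13) pairs with small-subunit ribosomal RNA and is needed for its acetylation. In human cells most box C/D snoRNAs are cut from introns of host genes, whereas U3, U8 and U13 are transcribed from promoters of their own.

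The sequences that the results turn on are printed 5′ to 3′ from the GRCh37 genome at the annotated gene positions. The first is the start of SNORD3B-2, the U3 gene with most counts, at chr17:18967184-18967449 on the minus strand; its capitals mark the bases that differ from SNORD3A or SNORD3C. In the others, capitals mark box C (TGATGA, searched on the gene's strand in the first 20 bases) and box D (CTGA, searched in the last 20 bases). They are shown because they are host-encoded genes with the highest level or with the largest differences between conditions, together with both U14 genes.
SNORD3B-2: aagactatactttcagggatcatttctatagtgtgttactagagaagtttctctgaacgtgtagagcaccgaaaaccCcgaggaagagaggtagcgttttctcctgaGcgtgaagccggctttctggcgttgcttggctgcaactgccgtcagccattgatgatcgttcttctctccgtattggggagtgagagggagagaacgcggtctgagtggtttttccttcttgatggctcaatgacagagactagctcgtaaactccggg
SNORD17: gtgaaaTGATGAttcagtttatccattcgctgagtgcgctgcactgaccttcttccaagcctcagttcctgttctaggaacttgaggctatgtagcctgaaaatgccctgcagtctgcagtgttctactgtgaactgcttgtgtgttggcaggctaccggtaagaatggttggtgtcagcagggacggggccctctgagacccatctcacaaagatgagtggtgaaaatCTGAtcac
SNORD89: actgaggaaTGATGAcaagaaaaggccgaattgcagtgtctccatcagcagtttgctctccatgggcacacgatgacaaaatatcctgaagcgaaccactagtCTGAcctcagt
SNORD41: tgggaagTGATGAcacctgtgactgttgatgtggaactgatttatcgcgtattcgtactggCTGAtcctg
SNORD12C: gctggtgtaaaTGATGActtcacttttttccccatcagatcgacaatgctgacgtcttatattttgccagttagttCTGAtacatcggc
SNORD73: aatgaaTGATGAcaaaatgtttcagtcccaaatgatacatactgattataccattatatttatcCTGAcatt
SNORD14A: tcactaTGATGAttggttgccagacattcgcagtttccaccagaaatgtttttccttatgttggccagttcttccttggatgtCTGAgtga
SNORD14E: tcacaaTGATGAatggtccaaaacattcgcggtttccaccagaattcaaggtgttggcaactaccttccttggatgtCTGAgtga

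SNORD17 lies at chr20:17943353-17943589 within SNX5, SNORD89 at chr2:101889398-101889511 within RNF149 and SNORD41 at chr19:12817263-12817332 within TNPO2. SNORD12C lies at chr20:47895477-47895565 within ZFAS1, SNORD73 at chr4:152023209-152023280 within RPS3A, SNORD14A at chr11:17096201-17096291 within RPS13 and SNORD14E at chr11:122928785-122928869 within HSPA8. Both boxes were found in 53 of the 83 genes (63.9%), against 200 of all 389 annotated (51.4%) and 137 of the 277 with no counts (49.5%). Among the genes inside a host they were found in 51 of 74, and among those without a host in 2 of 9. The median length was 80 bases. The search used exact letters near the ends of the annotated span. A gene without a match may therefore carry a variant box, or the letters may lie further inside. The printed start of SNORD3B-2 holds both TGATGA and CTGA outside the bases searched, so this gene was counted as without a match.

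Of the 83 genes, 74 lay inside 52 host genes on the same strand, and 12 of them inside 8 ribosomal protein genes. Another 11 lay in 9 genes that are best known as snoRNA hosts (GAS5, ZFAS1 and SNHG genes). The 9 without a host were the 4 U3 genes SNORD3A, SNORD3B-1, SNORD3B-2 and SNORD3C, the U13 gene SNORD13, and 4 copies with few counts. An exon of another gene overlapped 16 of the 83 on the same strand, SNORD89, SNORD12 and SNORD12B among them. For genes inside a host, reads from the unspliced host RNA and from the snoRNA cannot be told apart in a table of counts.

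Most box C/D genes were covered thinly. Their counts summed to 83568 over the 6 libraries, and 4 genes (SNORD3B-2, SNORD17, SNORD3A and SNORD13) held 87.3% of them. The median gene had 78 counts in all, 6 genes had over 1000, 28 had 100 to 1000 and 49 had under 100. After extraction the RNA was cleaned on RNeasy Mini columns, which are known to retain long RNA better than RNA of this size. Whether this step lowered the counts of these genes, or of the shorter ones among them, was not tested. Genes of 100 bases or longer (n = 16) had a median level of 12.7 CPM per kb of gene length, and shorter genes (n = 67) of 5.75. The longer genes included the U3 genes and SNORD13, which have promoters of their own, so length was not the only difference between these sets. Across the 83 genes Spearman's rho between length and level per kb was 0.24, a description over genes that share libraries and depth. In the test across all genes, 53 of the 83 passed the filter on low counts, which asks for about 10 counts in at least 2 libraries, and 30 did not. Of the 53 tested, 35 reached that level in all 6 libraries, 18 in fewer and 0 in libraries of 1 group only. SNORD73 reached it in no EV library.

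Per length, SNORD3B-2 stood highest, at a mean of 449 CPM per kb over the 6 libraries. SNORD17, a guide for large-subunit ribosomal RNA, followed at 259 and SNORD13 at 165 CPM per kb. Below them stood SNORD3A at 54.4, SNORD15B at 47.2 and SNORD4A at 43.6 CPM per kb, and SNORD104, SNORD88A and SNORD12 followed at 34.5, 27.9 and 20.6. The ranges over libraries of SNORD3B-2 (204 to 697) and SNORD17 (200 to 320) overlapped, as did those of SNORD17 and SNORD13 (91.8 to 252), so these neighbours were not set apart beyond the spread over libraries, although within each library they stood in this order. Levels per kb divide by the whole annotated span, 699 bases for SNORD3A and 104 for SNORD13, and in CPM SNORD3A (30.0 to 47.0) lay above SNORD13 (9.55 to 26.2).

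**Figure D1:**
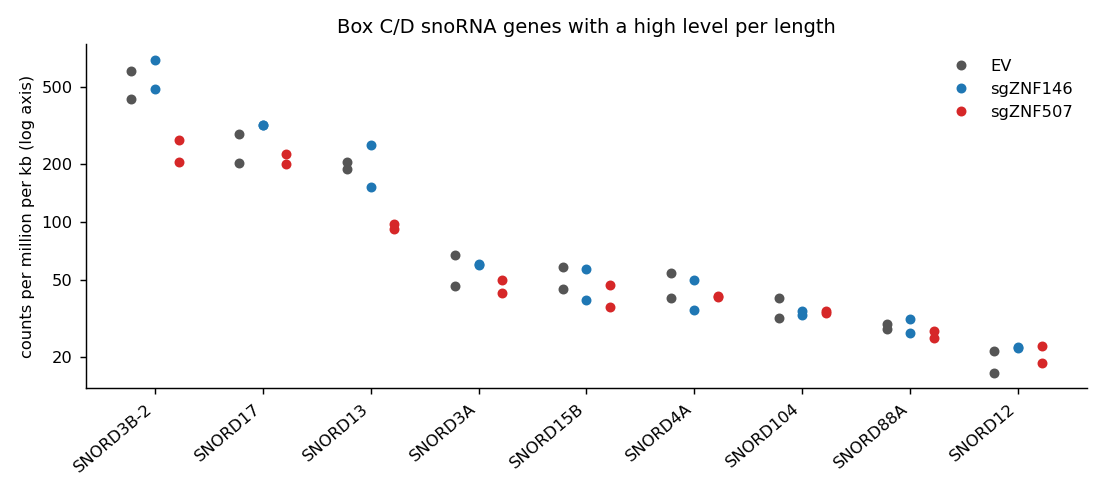
Level of 9 box C/D snoRNA genes from the 10 with the highest mean, in CPM per kb of gene length on a log axis, with 1 point for each library (grey EV, blue sgZNF146, red sgZNF507). For SNORD3B-2 and SNORD13 both red points lie below the EV and sgZNF146 points; SNORD104 lies between 31.6 and 40.3 CPM per kb in all libraries.

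Disruption of ZNF507 was compared with EV to see which box C/D snoRNA genes differed. Among the U3 genes, SNORD3B-2 lay 2.21-fold lower in sgZNF507 and was the only tested box C/D gene to pass the threshold. U13 lay 2.08-fold lower and just missed it, although it passed in a fit blocked on replicate. The tested genes inside hosts had a median log2 fold change of -0.07 and ran from -1.31 to 1.17, and none of them passed.

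SNORD3B-2 had 11929 and 9512 counts in EV, 13988 and 9707 in sgZNF146, and 3726 and 6102 in sgZNF507. As CPM, these were 479 and 344, 551 and 386, and 162 and 211. Both sgZNF507 libraries lay below all 4 others, which overlapped. The log2 fold change in sgZNF507 against EV was -1.14 (SE 0.17), with an adjusted p of 0.0181 in edgeR's quasi-likelihood test across 22010 genes. It missed the threshold with DESeq2 (adjusted p = 0.18), without EV replicate 1 (-0.88, adjusted p = 0.233) and without sgZNF507 replicate 1 (-0.97, adjusted p = 0.0758).

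U13 had fewer counts. SNORD13 had 533 and 542 counts in EV, 666 and 398 in sgZNF146, and 220 and 294 in sgZNF507, or 21.4 and 19.6, 26.2 and 15.8, and 9.55 and 10.1 CPM. The sgZNF507 libraries again lay below the 4 others. The log2 fold change against EV was -1.06 (SE 0.19), with an unadjusted p of 9.35e-05 and an adjusted p of 0.0502 by edgeR's quasi-likelihood test. The call depended on the setting: the adjusted p ranged up to 0.45 (without EV replicate 1) and was under the threshold in 5 of 13 alternatives. With the replicate block it was 1.49e-08 (log2 fold change -1.04), and 2 box C/D genes were then called, SNORD3B-2 and SNORD13. Between EV and sgZNF507, however, same-numbered libraries did not deviate together over the tested box C/D genes (correlation of -0.253).

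**Figure D2:**
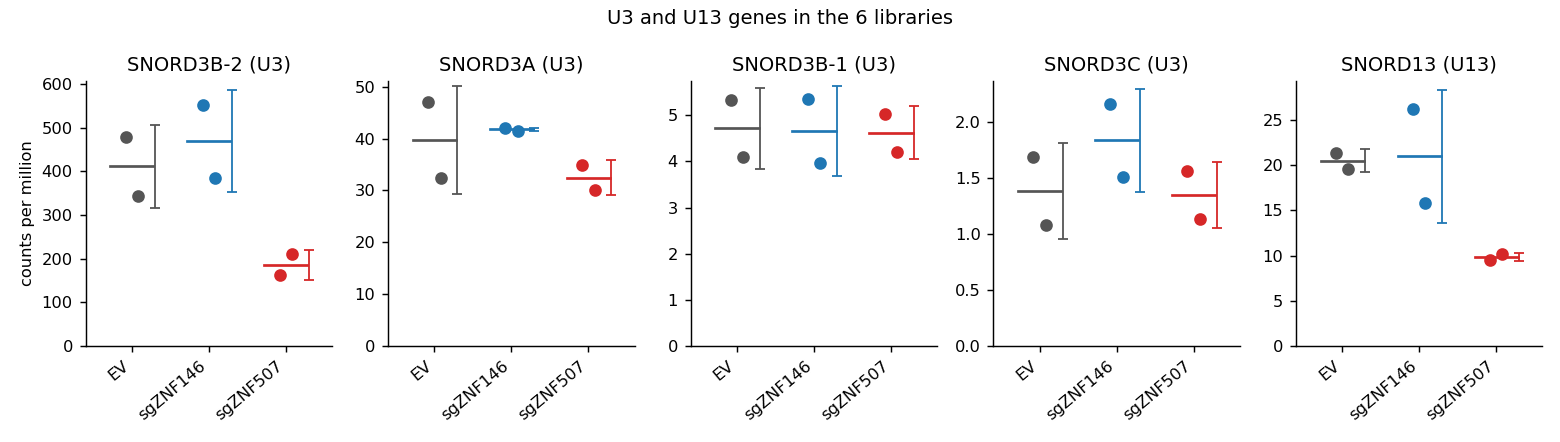
CPM of the 4 U3 genes and the U13 gene in each library; points are libraries, horizontal lines group means and bars the SD (n = 2), each panel on its own linear axis from 0. SNORD3B-2 lies at 162 and 211 CPM and SNORD13 at 9.55 and 10.1 CPM in sgZNF507, below every other library, while sgZNF507 and EV overlap for the other 3 genes.

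The other U3 genes moved less. SNORD3A stood at 47.0 and 32.4 CPM in EV, 42.0 and 41.6 in sgZNF146 and 34.9 and 30.0 in sgZNF507, with a log2 fold change of -0.29 (SE 0.14, unadjusted p = 0.0599) for sgZNF507 against EV. SNORD3B-1 and SNORD3C had log2 fold changes of -0.03 and -0.04, from 100 to 136 and 30 to 55 counts a library. SNORD3B-2 had 10.2 and 10.6 counts for each SNORD3A count in EV, 13.1 and 9.28 in sgZNF146, and 4.63 and 7.01 in sgZNF507. The ratio was lower in both sgZNF507 libraries than in the 4 others, and this difference was not tested.

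How reads divide among the U3 copies is uncertain. SNORD3B-1 and SNORD3B-2 were identical over their first 266 bases, the stretch printed above. Counted from 1 at the 5′ end, SNORD3A differed from both by A78C (SNORD3A base first), and SNORD3C differed from SNORD3A by G108A. Of the 217 windows of 50 bases, the read length, in this stretch, 0 occurred at 1 place only in the genome for either SNORD3B gene, against 20 for SNORD3A and 50 for SNORD3C. Over the whole annotated span 132 of 742 windows were unique for SNORD3B-2, 88 of 709 for SNORD3B-1, 20 of 650 for SNORD3A and 50 of 532 for SNORD3C. The unique windows of SNORD3B-2 therefore all reached beyond its first 266 bases, within an annotated span of 791 bases. Counts per gene do not show which part of the span they came from. SNORD13 was unique in all of its 55 windows. In all, 77 of the 83 genes were unique throughout, 4 in part, and 2 (SNORD103A and SNORD103B) nowhere.

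The counts of all 4 U3 genes were therefore also summed, which does not depend on how reads were split among these 4. Some of their windows occurred at 5 places in the genome. The sum therefore still depends on how reads at several places were counted, which is not known here. SNORD3B-2 held 79.6% to 91.7% of these counts, depending on the library. The sum was 533 and 381 CPM in EV, 600 and 433 in sgZNF146, and 204 and 246 in sgZNF507. It was 2.03-fold lower in sgZNF507 than in EV (log2 fold change -1.02, SE 0.16, adjusted p = 0.0193 by edgeR's quasi-likelihood test on the table of summed families). Without EV replicate 1 the log2 fold change was -0.76 (adjusted p = 0.294), and without sgZNF507 replicate 1 it was -0.90 (adjusted p = 0.0999). The call therefore rested on both of these libraries. Against sgZNF146 the sum was 2.29-fold lower (-1.20, SE 0.16, adjusted p = 0.0063), and -0.94 without sgZNF146 replicate 1 (adjusted p = 0.0611). A further 81 genes in the table are named U3 without being SNORD genes, and together they had 9.54 to 12.9 CPM in the 6 libraries, with overlap of the groups.

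Over all 53 tested genes, 1 was called lower and 0 higher in sgZNF507 against EV at an adjusted p under 0.05, where 0.0682% of all genes tested were called lower and 0.114% higher. At an unadjusted p under 0.05 there were 6 genes (4 lower and 2 higher), against 3.39% of all genes. The 2 sgZNF507 libraries lay below both EV libraries for 11 of the 53 genes and above both for 5, against 15.3% and 14% of all genes. The median log2 fold change was -0.08, against 0.00 for all genes tested.

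The 5 genes with promoters of their own, the U3 genes and SNORD13, all had a negative log2 fold change in sgZNF507 against EV, with a median of -0.29. For SNORD3A, SNORD3B-1 and SNORD3C the direction turned without EV replicate 1, to 0.0056, 0.17 and 0.30. The summed level of the 5 genes was 555 and 401 CPM in EV, 627 and 449 in sgZNF146 and 213 and 256 in sgZNF507. SNORD3B-2 alone held 479 and 344, 551 and 386, and 162 and 211 CPM of it, so the sum largely restates that gene. Of the 74 genes inside hosts, 48 were tested, 26 of them with a negative value, 0 were called, 4 had an unadjusted p under 0.05, and the median was -0.07. Their summed level was 138 and 106 CPM in EV, 136 and 142 in sgZNF146 and 105 and 113 in sgZNF507, and the sgZNF507 libraries overlapped those of EV. SNORD17 alone held 67.6 and 48.2, 75.9 and 75.5, and 47.3 and 53.4 CPM of it. The difference between the 2 kinds of gene was not tested.

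**Figure D3:**
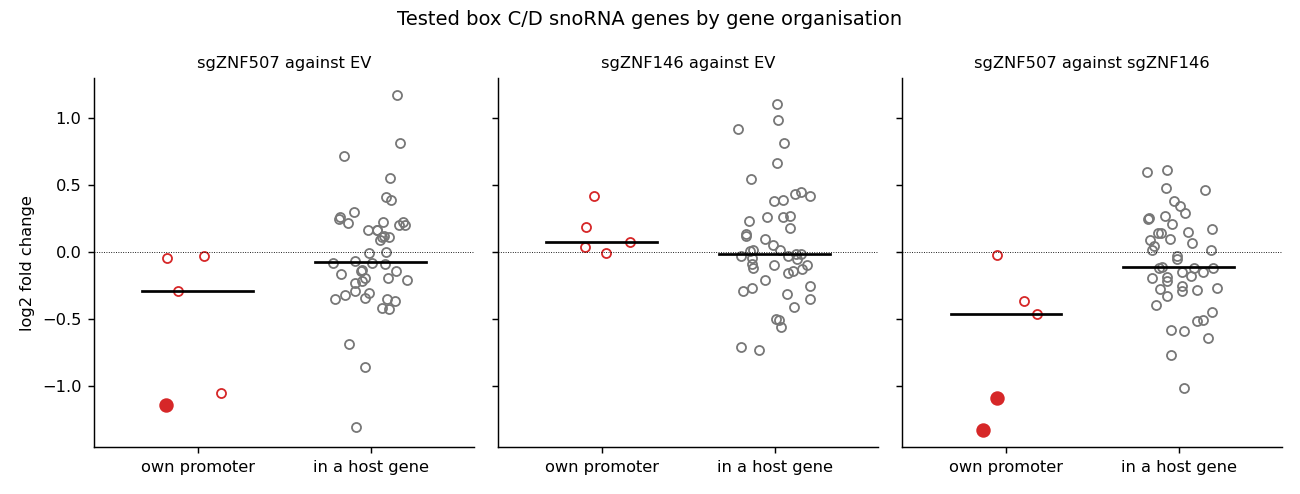
Log2 fold change of the 53 tested genes in the 3 comparisons, divided into the 5 with promoters of their own (red) and the 48 inside host genes (grey); filled points passed the threshold and black lines are medians. The filled points are SNORD3B-2 in sgZNF507 against EV, and SNORD3B-2 and SNORD13 in sgZNF507 against sgZNF146.

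Other classes of small RNA are given beside these values. Box H/ACA snoRNA and small Cajal body RNA genes summed to 584 and 476 CPM in EV, 571 and 592 in sgZNF146 and 458 and 449 in sgZNF507, so both sgZNF507 libraries were the lowest here too. Spliceosomal snRNA genes and copies summed to 182 and 148, 163 and 150, and 128 and 117 CPM, with the same order. Single small RNA genes also had negative log2 fold changes in sgZNF507 against EV. For RNU4-1, RNU4-2, RNU1-1 and RN7SL2 the libraries of sgZNF507 and EV overlapped. The log2 fold change was -0.87 (SE 0.37) for RNU6ATAC, -0.76 (SE 0.26) for RNU4-1 and -0.57 (SE 0.31) for RNU4ATAC. It was -0.41 (SE 0.23) for RNU4-2, -0.35 (SE 0.15) for RN7SK, -0.28 (SE 0.32) for RNU1-1 and -0.06 (SE 0.12) for RN7SL2. None of these passed after adjustment. The mitochondrial ribosomal RNAs, whose level also reflects the removal of ribosomal reads, stood at 2704 and 2878 CPM in EV, 261 and 316 in sgZNF146 and 1653 and 101 in sgZNF507. They were far lower in replicate 2 than in replicate 1 of sgZNF507. The part of small-RNA recovery or of the removal of ribosomal reads in the U3 and U13 values was not tested.

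**Figure D4:**
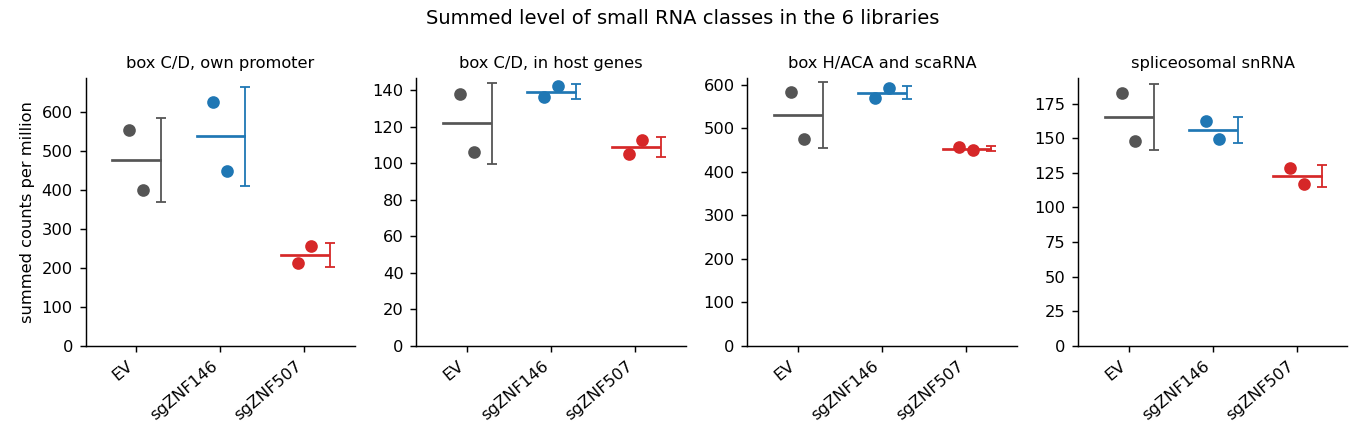
Summed CPM of 4 classes of small RNA genes in each library; points are libraries, lines group means and bars the SD (n = 2), each panel on its own linear axis from 0. In sgZNF507 the box C/D genes with promoters of their own lie at 213 and 256 CPM against 401 to 627 elsewhere. SNORD3B-2 alone holds 162 and 211 CPM of this sum in sgZNF507 and most of it in the other libraries. The other 3 classes lie closer to the other groups, with both sgZNF507 points still the lowest for box H/ACA and spliceosomal RNA.

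Among the genes inside hosts, the largest differences in sgZNF507 against EV that separated the libraries were seen at low counts. SNORD41, a guide for large-subunit ribosomal RNA, had 41 and 26 counts in EV, 31 and 22 in sgZNF146 and 8 and 19 in sgZNF507, and its log2 fold change was -1.31 (SE 0.41, unadjusted p = 0.00744). SNORD89 had 74 and 71, 62 and 54, and 38 and 41 counts, with a log2 fold change of -0.86 (SE 0.22, unadjusted p = 0.00224). Its position lies within an exon of RNF149 on the same strand, and RNF149 itself had a log2 fold change of 0.01 (SE 0.09). In the other direction, SNORD73 had 5 and 7 counts in EV, 10 and 15 in sgZNF146, and 12 and 15 in sgZNF507. Against EV its log2 fold change was 1.17 (SE 0.49, unadjusted p = 0.035). Its EV counts lay below the filter's minimum, so SNORD73 was tested only because of the disrupted cells, where it was higher. Its values against EV are therefore a description. SNORD12C had 14 and 21, 22 and 27, and 25 and 36 counts, a log2 fold change of 0.81 (SE 0.33, unadjusted p = 0.0281), and the SNORD19 gene ENSG00000212493 had 0.39 (SE 0.33). None of these passed after adjustment.

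All 52 host genes were tested and 0 were called in any of the 3 comparisons by edgeR's quasi-likelihood test, against 0.0682% of all genes called lower and 0.114% higher in sgZNF507 against EV, so that no call among 52 says little. At an unadjusted p under 0.05 there were 5, 0 and 2 hosts, against 3.39%, 2.43% and 4.03% of all genes. The 5 in sgZNF507 against EV were all lower, namely RPL37 (-0.30), SNHG12 (-0.32), NCL (-0.17), TAF1D (-0.19) and SNX5 (-0.14), and were named after their values were seen. Over all 52 hosts the log2 fold changes in sgZNF507 against EV ran from -0.32 (SNHG12, SE 0.11) to 0.13 (TTC28, SE 0.06). Those of the tested snoRNA genes inside hosts ran from -1.31 (SNORD41, SE 0.41) to 1.17 (SNORD73, SE 0.49). These 2 snoRNA genes had few counts, so the 2 ranges differ in precision and were not compared by a test. TNPO2, ZFAS1 and RPS3A, which hold SNORD41, SNORD12C and SNORD73, had 0.00, -0.07 and 0.04.

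**Figure D5:**
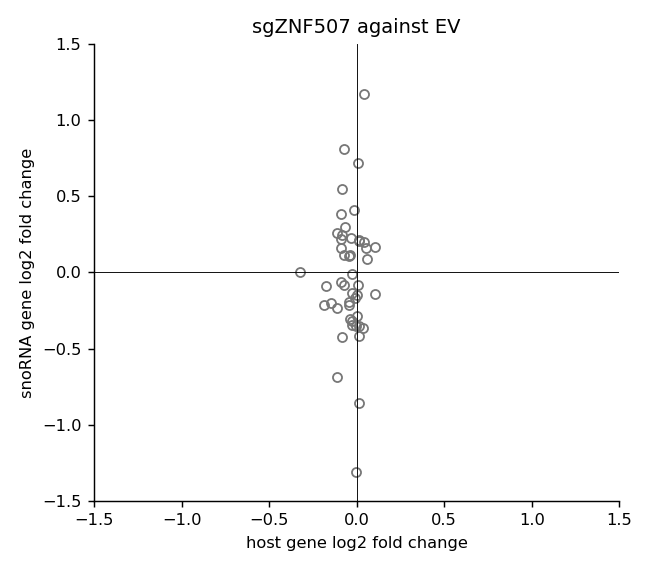
Log2 fold change in sgZNF507 against EV of each tested snoRNA gene inside a host (vertical) and of its host gene (horizontal), on equal axes, with 1 point for each of 48 snoRNA genes. The points spread from -1.31 to 1.17 vertically, with both ends from genes with few counts, and horizontally stay between -0.32 and 0.10. Genes in 1 host share its horizontal value.

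Disruption of ZNF146 was compared with EV in the same fit, which shares the EV libraries with the comparison above. U3 and U13 overlapped EV: the log2 fold change was 0.19 (SE 0.17) for SNORD3B-2, 0.04 (SE 0.18) for SNORD13 and 0.08 for SNORD3A. Of the 53 tested genes 0 were called lower and 0 higher by edgeR's quasi-likelihood test, where 0% of all genes were called in either direction, and DESeq2 also called 0. With the replicate block 1 gene was called, SNORD17 (0.40, adjusted p = 0.00842), and with no filter on low counts the same gene (0.39, adjusted p = 0.013). At an unadjusted p under 0.05 there were 3 genes, all higher, against 2.43% of all genes tested. The 2 sgZNF146 libraries lay below both EV libraries for 7 genes and above both for 8, against 14.6% and 14% of all genes. The median log2 fold change was 0.01.

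The 3 genes were SNORD17, SNORD14E and SNORD73. SNORD17 had 1684 and 1333 counts in EV, 1927 and 1900 in sgZNF146, and 1091 and 1547 in sgZNF507, or 67.6 and 48.2, 75.9 and 75.5, and 47.3 and 53.4 CPM. It was highest in both sgZNF146 libraries, with a log2 fold change of 0.39 (SE 0.12, unadjusted p = 0.0079) against EV, while EV and sgZNF507 overlapped. Its host SNX5, a sorting nexin gene, had -0.03 (SE 0.06). SNORD14E (U14) had 28 and 22 counts in EV, 35 and 50 in sgZNF146 and 27 and 34 in sgZNF507, and its log2 fold change was 0.81 (SE 0.30, unadjusted p = 0.0185). The other U14 gene, SNORD14A, had 27 and 35, 28 and 31, and 24 and 26 counts, so its groups overlapped in that comparison. For SNORD73, which passed the filter only through disrupted cells, the value was 1.10 (SE 0.50, unadjusted p = 0.0475). The SNORD63 gene ENSG00000206989 had 0.98 (SE 0.47) and, from the same host HSPA9, the SNORD63 gene ENSG00000222937 had -0.73 (SE 0.45). The lowest values that separated the libraries also included SNORD53_SNORD92 (-0.56, SE 0.49) and SNORD117 (-0.50, SE 0.43).

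Setting sgZNF507 against sgZNF146 compared both disruptions directly. SNORD3B-2 and SNORD13 were lower in sgZNF507. SNORD3B-2 had a log2 fold change of -1.33 (SE 0.17, adjusted p = 0.00685) and SNORD13 of -1.09 (SE 0.19, adjusted p = 0.0405) in edgeR's quasi-likelihood test, a 2.51-fold and a 2.13-fold difference. The SNORD3B-2 call stood in all 13 alternatives, whereas the SNORD13 call was lost in 7 of them, with DESeq2 (adjusted p = 0.12) and without sgZNF146 replicate 1 (-0.68, adjusted p = 0.386) among them. Of the 53 tested genes 2 were called lower and 0 higher, against 0.0682% and 0.104% of all genes tested. At an unadjusted p under 0.05 there were 7 genes, all lower, against 4.03% of all genes.

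They also included SNORD17, SNORD3A, SNORD89 and SNORD41. SNORD17 had -0.59 (SE 0.12, unadjusted p = 0.000432, adjusted p = 0.158). With DESeq2 it did pass (-0.58, adjusted p = 0.00511). With the replicate block 4 genes were called, SNORD3B-2, SNORD13, SNORD17 (-0.58, adjusted p = 1.25e-06) and SNORD3A (-0.37, adjusted p = 0.00759). SNORD41 had -1.02 (SE 0.43). The largest positive values that separated the libraries were those of SNORD117 (0.61, SE 0.43), SNORD11 (0.60, SE 0.38) and SNORD125 (0.46, SE 0.28). The sgZNF507 libraries lay below both sgZNF146 libraries for 12 genes and above both for 7, against 16.5% and 15.5% of all genes, and the median log2 fold change was -0.12.

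Families that share a number were compared by their sums. Of 13 families with 2 or more genes, 12 could be tested, and only SNORD3 was called, in sgZNF507 against EV and against sgZNF146. The U14 sum was 2.21 and 2.06 CPM in EV, 2.48 and 3.22 in sgZNF146 and 2.23 and 2.07 in sgZNF507, so it was higher in both sgZNF146 libraries (log2 fold change 0.42, SE 0.22, unadjusted p = 0.0765). The SNORD12 sum, from the 3 genes in ZFAS1, was 3.85 and 3.14, 4.17 and 3.93, and 3.93 and 4.20 CPM. GNL3, a nucleolar GTPase gene, was the only host with 4 of the genes, and these summed to 3.09 and 2.17 CPM in EV, 2.56 and 2.74 in sgZNF146 and 2.73 and 3.14 in sgZNF507, with overlapping groups.

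U8 could not be followed. SNORD118 had 0 counts in all 6 libraries, which allows up to 0.104 to 0.13 CPM of counted reads (3 counts in a library). Its position, chr17:8076772-8076905 on the minus strand, lies within an exon of TMEM107 on the same strand. Over all 389 SNORD genes, 94 of the 115 overlapped in this way had no counts (81.7%), against 183 of the 274 others (66.8%). The gene carrying the symbol SNORD22 is a copy on chromosome 13 and also had 0 counts, so U22 was not measured here. The 464 genes named snoU13, which are other copies of U13, together had 14.5 and 15.4 CPM in EV, 13.5 and 12.5 in sgZNF146 and 13.4 and 14.9 in sgZNF507, with overlap between sgZNF507 and the other groups.

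The large imprinted clusters had almost no counts. SNORD113 and SNORD114 on chromosome 14 have 15 and 30 annotated genes and had 0 and 3 counts in all, and SNORD115 has 46 genes and had 1 count. The 25 SNORD116 genes of the chromosome 15 cluster had 0 counts. The 30 counts of that family came from a copy on chromosome 9 inside MVB12B, which had 7 and 2 counts in EV, 6 and 9 in sgZNF146 and 4 and 2 in sgZNF507 and was not tested. An exon of another gene on the same strand overlapped 6 SNORD113, 12 SNORD114, 5 SNORD115 and 21 SNORD116 genes, so their counts, like that of U8, may leave reads out.

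The proteins that build and mature box C/D snoRNPs were taken as a list of 26 genes, of which 24 were found in the table and tested. None was called in any comparison by edgeR's quasi-likelihood test, and 0 had an unadjusted p under 0.05, where 3.39%, 2.43% and 4.03% of all genes did, so a list of 24 would hold few by the same shares. The median log2 fold changes were -0.05, -0.02 and -0.03 for sgZNF507 against EV, sgZNF146 against EV and sgZNF507 against sgZNF146. FBL stood at 271 ± 7.14 CPM in EV, 255 ± 21.0 in sgZNF146 and 261 ± 21.1 in sgZNF507 (SD, n = 2). NOP56 had a log2 fold change of -0.05 (SE 0.06) and NOP58 of -0.08 (SE 0.07) in sgZNF507 against EV. RRP9, which binds U3 specifically, stood at 57.8 ± 4.90 CPM in EV and 54.1 ± 4.77 in sgZNF507 (SD, n = 2), a log2 fold change of -0.09 (SE 0.09). TGS1, which hypermethylates the cap of U3, and PHAX, an export adaptor that acts in U3 transport, had -0.07 and 0.00. The lowest value was that of SMN1 (-0.27, SE 0.19), a gene with a near-identical copy whose reads may be split. These are RNA levels of the genes and say nothing on the amounts of protein.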

How the data were processed

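RNA from HEK293 cells was sequenced in 6 ribosome-depleted, strand-specific libraries of 50-base paired reads, 2 each of EV, sgZNF146 and sgZNF507, grouped by the labels. The authors clipped reads with the Fastx Toolkit, removed ribosomal reads with Bowtie, mapped the rest to hg19 with TopHat2 and counted them per gene with featureCounts, and the deposited values are whole-number counts without normalization. How reads at several places or in overlapping genes were counted is not given in the sources used here. Totals were 22724439 to 28524025 counts, and no molecular identifiers were used, so counts can include PCR copies. The labels only number the replicates, and the paper describes them as biological duplicates. With 2 cultures a group, the spread of a single gene is known poorly. In edgeR's quasi-likelihood test this spread was pooled over the groups and drawn towards that of all genes tested. The p-values therefore do not rest on the spread between the 2 cultures of a group alone.

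Symbols and positions came from GENCODE v44 lifted to GRCh37 (96.1% of 57773 identifiers matched), and 50-base windows and boxes from the GRCh37 sequence. The authors used Ensembl gene models of another release, so hosts, exon overlaps and lengths given here may differ from those in the counting. A host is the same-strand gene spanning the snoRNA gene with most counts. Counts were fitted with edgeR 4.0.16 (R 4.3.3; filterByExpr, TMM, quasi-likelihood test on all 6 libraries, Benjamini-Hochberg over 22010 genes, threshold 0.05). CPM used TMM library sizes. SNORD families were also summed and refitted. In simulated counts for sgZNF507 against EV with 200 genes changed 2-fold, the fit recovered 169 (21833 tested). The spread was drawn from the trend over all genes, and the changed genes lay above a minimum mean count that many tested box C/D genes do not reach. The recovery therefore does not carry over to those genes. Alternatives were DESeq2 1.42.0, other normalizations and filters, the 4 libraries compared, a replicate block and leaving out each library. Named were the U3, U8, U13, U14 and U22 genes, those past the threshold, the 3 largest library-separating changes in each direction, the 10 highest levels, families and hosts with 4 or more genes, and snoRNP genes; the genes with an unadjusted p under 0.05 were named after their values were seen. Same-numbered libraries deviated together from their group means (correlations of 0.138, 0.176 and 0.145 over all genes for the 3 pairs of groups). Over the tested box C/D genes the same correlations were 0.176, -0.253 and -0.0032, so pairs with sgZNF507 showed no shared deviation there. The pairing over all genes comes from the data, since the labels give the numbers without naming a shared batch. The members and lists were chosen with earlier results of these data known. ZNHIT3 and TAF9 were not analysed here, and 1 gene of the 10 highest levels is not reported here.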

Additional observations from a re-analysis of the deposited data

How the results depend on the processing

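SNORD3B-2 kept a negative log2 fold change in sgZNF507 against EV and against sgZNF146 under all 13 alternatives, from -1.37 to -0.88 and from -1.56 to -1.05, and SNORD13 from -1.12 to -0.99 and from -1.41 to -0.68. The number of box C/D genes called in sgZNF507 against EV was 1, but 2 with no filter on low counts and with the 4 libraries compared, 0 with DESeq2, and 0 to 2 leaving out 1 library. In sgZNF146 against EV it was 0, but 1 with no filter (SNORD17, 0.39, adjusted p = 0.013). In sgZNF507 against sgZNF146 it was 2, 3 with no filter, and 1 to 2 leaving out 1 library. The SNORD3 sum ranged from -1.25 to -0.76, from -0.080 to 0.44 and from -1.41 to -0.94 in sgZNF507 against EV, sgZNF146 against EV and sgZNF507 against sgZNF146 leaving out 1 library, and the families called were 0 to 1 in the first and the last. Why these values moved was not tested, beyond the fewer samples in a fit that leaves out a library.

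The fit with the replicate block called 2, 1 and 4 box C/D genes in sgZNF507 against EV, sgZNF146 against EV and sgZNF507 against sgZNF146. It changed no call of the SNORD3 sum or the other families.

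Directions turned in the following genes, none of them called, when 1 library was left out. In sgZNF507 against EV, SNORD3A ranged from -0.54 to 0.0056, SNORD3B-1 from -0.22 to 0.17 and SNORD3C from -0.34 to 0.30, each highest without EV replicate 1. In sgZNF146 against EV, SNORD3B-2 ranged from -0.094 to 0.44, SNORD3A from -0.18 to 0.37, SNORD13 from -0.37 to 0.36, SNORD3B-1 from -0.24 to 0.19 and SNORD14A from -0.12 to 0.10. In sgZNF507 against sgZNF146, SNORD3B-1 ranged from -0.22 to 0.22.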
